A study of Mus musculus with 6 samples.

Results

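The tissue kallikreins of the epidermis and Spink5, the gene of their inhibitor LEKTI, were followed in the skin of LynDN transgenic and wild-type (WT) mice. Members were taken by gene symbol, and 9 of the 10 listed genes had a row among the 22879 rows tested: Klk5, Klk6, Klk7, Klk8, Klk9, Klk10, Klk11, Klk14 and Spink5, each with 1 probe. No row carried the symbol Klk13, which is therefore not analysed here. The genes were chosen by name as a known family, with the LynDN and WT log ratios of this same contrast in view, and no threshold was applied. Their values are therefore a description and support no test.

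The study compared 3 LynDN mice with 3 WT mice by 2-colour microarray on total RNA from whole skin. Lyn belongs to the Src family of tyrosine kinases, and LynDN (LynDeltaN in the series title) names the transgene. For each of 3 pairs of mice a dye swap of 2 arrays was made: LynDN mouse 1 with WT mouse 1 (pair 1), LynDN mouse 2 with WT mouse 3 (pair 2) and LynDN mouse 3 with WT mouse 2 (pair 3). The sources used here give neither strain nor age, nor the promoter of the transgene, nor how mice were matched. The deposited value is a log ratio of the 2 genotypes, taken as log2 because its range is too wide for base 10. No level per genotype was used, so the skin label could not be set against marker levels, and fewer cells of a type cannot be told apart from less RNA per cell.

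The labels do not say which genotype is the numerator, so a sign marks a side and no more. S100a9, S100a8 and the stress keratin Krt16, genes of inflamed epidermis, were positive on 6 of 6 arrays, with mean log2 ratios of 5.54, 4.61 and 2.49. Skin inflammation is the known trait of mice of this kind, which would place LynDN on the positive side, but this was not settled by the labels and no probe was named Lyn. Every statement below on positive and negative genes would turn as a whole if WT were the numerator.

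Kallikreins are secreted serine proteases made by upper epidermal keratinocytes and stored in lamellar granules. In human skin KLK5 and KLK7 cut corneodesmosin, desmoglein 1 and desmocollin 1, the proteins that hold corneocytes together, so that the outermost cells are shed. KLK5 also activates other kallikreins, and LEKTI holds KLK5, KLK7 and KLK14 in check; loss of SPINK5 causes Netherton syndrome, with a peeling, inflamed skin. The mouse genes lie side by side on chromosome 7, in the order Klk14, Klk13, Klk12, Klk11, Klk10, Klk9, Klk8, Klk7, Klk6, Klk5, Klk4 and Klk15, followed by the Klk1 group. Spink5 lies on another chromosome.

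The bases before the annotated starts of Klk9, Klk10, Klk6 and Klk5 are shown because the first 3 genes had the highest ratios of the measured members and Klk5, next to Klk6, was the only member negative on every array. They are the 250 bases upstream of the start in RefSeq (GRCm38.p6, plus strand), with matches to the CACCC box, a motif of Krüppel-like factors, in capitals on either strand. For Klk6 both annotated starts are given.
Klk9 (chr7:43791641-43791890): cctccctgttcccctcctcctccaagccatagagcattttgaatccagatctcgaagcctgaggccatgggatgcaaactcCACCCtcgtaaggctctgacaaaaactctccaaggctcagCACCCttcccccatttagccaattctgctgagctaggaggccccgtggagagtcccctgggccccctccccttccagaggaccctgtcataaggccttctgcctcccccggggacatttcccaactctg
Klk10 (chr7:43780804-43781053): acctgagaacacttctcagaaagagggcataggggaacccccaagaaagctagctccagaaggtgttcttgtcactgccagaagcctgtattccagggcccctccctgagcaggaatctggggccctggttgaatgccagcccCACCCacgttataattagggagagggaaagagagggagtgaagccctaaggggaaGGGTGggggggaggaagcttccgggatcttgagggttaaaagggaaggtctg
Klk6, first start (chr7:43824294-43824543): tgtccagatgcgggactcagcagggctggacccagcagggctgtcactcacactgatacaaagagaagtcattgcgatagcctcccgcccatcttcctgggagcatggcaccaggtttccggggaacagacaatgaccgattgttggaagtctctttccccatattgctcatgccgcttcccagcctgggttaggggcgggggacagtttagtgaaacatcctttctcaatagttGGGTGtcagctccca
Klk6, second start (chr7:43825200-43825449): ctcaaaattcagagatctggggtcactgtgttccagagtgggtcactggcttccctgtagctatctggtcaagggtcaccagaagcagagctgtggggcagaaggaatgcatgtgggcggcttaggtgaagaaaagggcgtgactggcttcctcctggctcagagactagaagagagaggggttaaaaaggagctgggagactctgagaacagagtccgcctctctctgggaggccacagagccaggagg
Klk5 (chr7:43842019-43842268): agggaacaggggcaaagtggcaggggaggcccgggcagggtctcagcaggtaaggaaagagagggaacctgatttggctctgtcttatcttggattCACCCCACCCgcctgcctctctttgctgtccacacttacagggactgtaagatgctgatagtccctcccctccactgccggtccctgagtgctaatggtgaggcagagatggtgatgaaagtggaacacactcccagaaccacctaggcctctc
Of 11 starts of the 9 listed kallikreins, Klk13 included, 8 held CACCC on either strand, against 52% of 32851 mouse promoter windows of the same length. The AP-1 motif TGANTCA and the TATA box TATAAA were found in 0 of the 11 windows, against 6.75% and 12.4% of all windows. The motif was found before Klk5 as well as before Klk9 and Klk10, and not before the second start of Klk6. A match is a string of letters and not a shown binding site.

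Klk9 and Klk6 had the highest ratios of the set, Klk10, Klk11 and Spink5 followed, and Klk5 lay on the opposite side. Of the 9 measured genes 7 had a positive mean ratio, against 43.9% of all rows. A mean ratio of at least 2-fold was reached by Klk9 and Klk6, and by 0.52% of all rows on the positive side. Klk6, Klk9, Klk10 and Spink5 were positive on 6 of 6 arrays, as were 3.72% of all rows, and Klk5 was negative on 6 of 6, as were 4.31% of all rows. The plot of the 9 genes on the 6 arrays shows how far this order came from pairs 2 and 3.

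**Figure D1:**
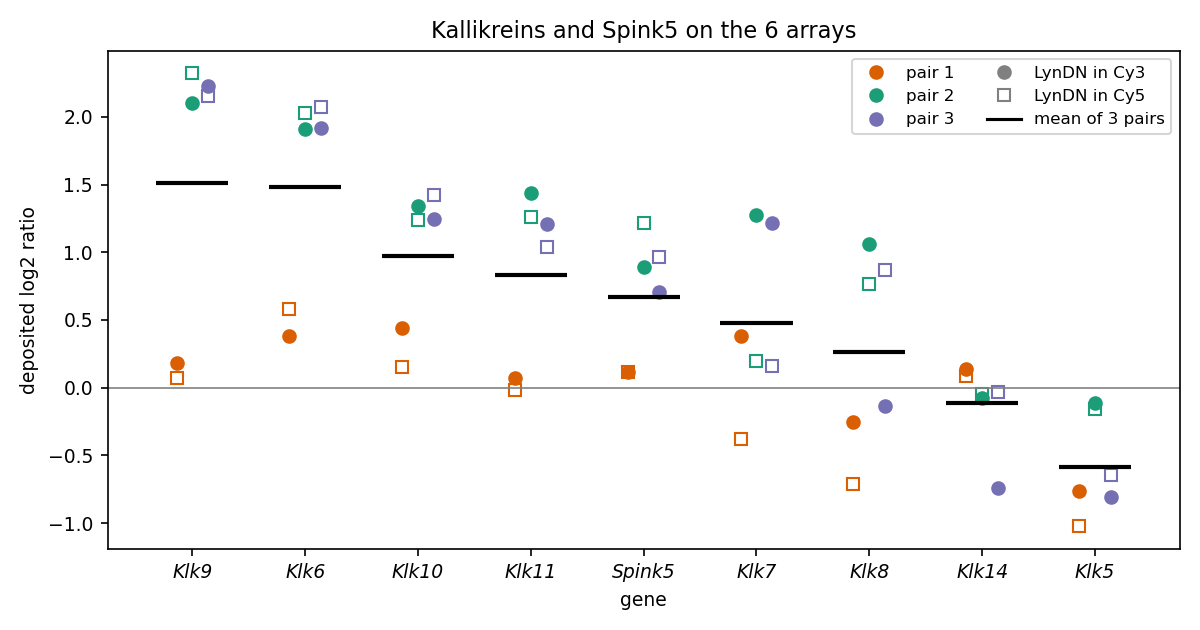
Deposited log2 ratio (vertical axis) of each kallikrein and Spink5 on the 6 arrays, coloured by mouse pair, with filled circles for arrays with LynDN in Cy3, open squares for arrays with LynDN in Cy5 and a black line for the mean of the 3 pairs. In Klk9, Klk6, Klk10, Klk11 and Spink5 both arrays of pair 1 lie below all 4 arrays of pairs 2 and 3.

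Klk9, the gene of a kallikrein with chymotrypsin-like cleavage, gave log2 ratios of 0.18, 2.10 and 2.23 in pairs 1, 2 and 3 with LynDN labelled in Cy3, and 0.07, 2.32 and 2.16 with LynDN labelled in Cy5. The 4 arrays of pairs 2 and 3 were thus close to one another and far above both arrays of pair 1. Its mean was 1.51 ± 1.20 (SD, n = 3 pairs), or 2.85-fold.

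Klk6, a trypsin-like protease known also from the nervous system as neurosin, gave 0.38, 1.91 and 1.92 with LynDN in Cy3, and 0.58, 2.03 and 2.07 with LynDN in Cy5, in pairs 1, 2 and 3. Pair 1 was again the lowest, though further from 0 than for Klk9. The mean was 1.48 ± 0.87 (SD, n = 3 pairs), or 2.79-fold.

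Klk10 and Klk11 are the neighbours of Klk9 on one side. Klk10, whose human product has little known protease activity, gave 0.44, 1.34 and 1.24 with LynDN in Cy3 and 0.15, 1.24 and 1.42 with LynDN in Cy5. Klk11, a trypsin-like protease, gave 0.07, 1.44 and 1.21 with LynDN in Cy3 and -0.01, 1.26 and 1.04 with LynDN in Cy5. Both genes had the same shape as Klk9 at a lower size, with means of 0.97 ± 0.59 for Klk10 and 0.83 ± 0.71 for Klk11 (SD, n = 3 pairs), and the Klk11 ratio in pair 1 was 0.03.

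Klk5 and Klk7, the proteases best known from the shedding of corneocytes, were on opposite sides by their means. Klk5, the trypsin-like starter of the cascade, gave -0.76, -0.11 and -0.81 with LynDN in Cy3 and -1.02, -0.16 and -0.64 with LynDN in Cy5. It was the farthest from 0 in pair 1, where Klk6, Klk7, Klk9, Klk10 and Klk11 were nearest to 0, and the nearest to 0 in pair 2. Its mean was -0.58 ± 0.40 (SD, n = 3 pairs), or 1.50-fold.

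Klk7, the chymotrypsin-like partner of Klk5, gave 0.38, 1.27 and 1.21 with LynDN in Cy3, and -0.38, 0.20 and 0.16 with LynDN in Cy5. The arrays of 1 orientation were all above their dye-swapped counterparts, and the 2 arrays of pair 1 had opposite signs. The mean was 0.47 ± 0.41 (SD, n = 3 pairs), and each dye orientation lay 0.48 from it. That distance was larger than in 99.3% of all rows, and the mean over the arrays with LynDN in Cy5 alone was -0.0063. The SD over pairs does not show this, and among the 9 genes Klk7 had the largest distance between dyes.

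Klk8 and Klk14 had no common side. Klk8, the gene of neuropsin, gave -0.25, 1.06 and -0.13 with LynDN in Cy3 and -0.71, 0.76 and 0.87 with LynDN in Cy5. Pairs 1 and 2 were on opposite sides, the arrays of pair 3 disagreed, and the mean of 0.27 ± 0.70 (SD, n = 3 pairs) was smaller than the spread. Klk14, a trypsin-like protease that cleaves the receptor PAR2 in human cells, gave 0.14, -0.08 and -0.74 with LynDN in Cy3 and 0.08, -0.05 and -0.03 with LynDN in Cy5. Only 1 array lay far from 0, and its dye swap did not, so that the mean of -0.11 ± 0.25 (SD, n = 3 pairs) rests on it.

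Spink5 gave 0.11, 0.89 and 0.70 with LynDN in Cy3 and 0.12, 1.21 and 0.96 with LynDN in Cy5, in pairs 1, 2 and 3. The inhibitor gene thus had the sign and the pair pattern of Klk9, Klk6, Klk10 and Klk11, and the sign opposite to Klk5, whose product it holds in check. Its mean was 0.67 ± 0.49 (SD, n = 3 pairs), or 1.59-fold. In each pair the ratio of Spink5 was higher than that of Klk5, by 1.01, 1.19 and 1.56 on the log2 scale in pairs 1, 2 and 3. The ratio of Klk6 was higher than that of Spink5 in each pair, by 0.36, 0.92 and 1.16. These are differences between ratios and say nothing of which gene had more RNA.

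In limma on the 3 pair values, 0 of the 9 genes passed at an adjusted p under 0.05, as 0.0175% of all rows did, and adjusted p ran from 0.278 for Klk6 and Klk10 to 0.716 for Klk8. At an unadjusted p under 0.05 the count was 7 of 9, all except Klk8 and Klk14, against 12.3% of all rows. When all 6 arrays were fitted with mouse pair as a block, 0 of 9 passed as well, against 1.06% of all rows, and the smallest adjusted p was 0.051 for Klk6. The block fit called too many unchanged rows in simulated data. Those data had no dye effect and little noise between the 2 arrays of a pair. The error rate of the block fit on the real arrays is therefore not known. A pass with the block, here and below, is taken as weak evidence. Without pair 1, limma called 6 of 9, all positive, against 3.22% of all rows called positive: Klk9 (adjusted p = 0.000425), Klk6, Klk10, Klk11, Spink5 and Klk7 (adjusted p = 0.00878). The fit without pair 1 rests on 2 mouse pairs. It leaves out the pair in which each of these 6 genes was lowest, so its calls are no separate support. Without pair 2 limma called 0 of 9, and without pair 3 also 0 of 9.

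Pair 1 differed from the other pairs in most of the set. The mean of pairs 2 and 3 minus pair 1 was 2.08 for Klk9 and 1.50 for Klk6 on the log2 scale, larger than in 99.9% and 99.7% of all rows. For Klk8, Klk11, Klk10, Spink5 and Klk7 it was 1.12, 1.21, 1.01, 0.83 and 0.71, each larger than in 98.2% of all rows or more. Klk5, negative in all pairs, had 0.46, larger than in 96.3% of all rows. Klk14 had -0.33, larger than in only 5.05% of all rows. In contrast the alarmins S100a8 and S100a9 had nearly the same ratio in all pairs, with a difference of 0.21 and -0.17. This did not hold for the inhibitor gene Slpi and the interleukin gene Il1b. Their differences were 2.21 and 1.16, larger than in 99.9% and 99.4% of all rows.

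**Figure D2:**
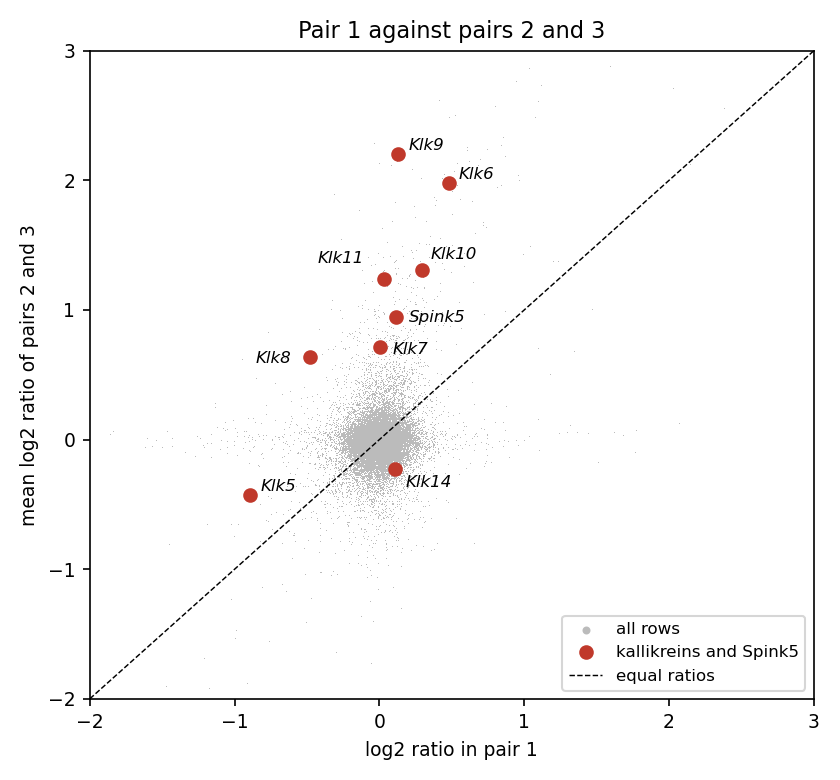
Log2 ratio in pair 1 (horizontal axis) against the mean log2 ratio of pairs 2 and 3 (vertical axis) for all rows (grey) and for the 9 genes (red, named), with a dashed line where both are equal. Klk9 lies at 0.13 against 2.20 and Klk6 at 0.48 against 1.98, while Klk5 lies at -0.89 against -0.43. Rows outside the axis limits are not drawn.

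Other features also set pair 1 apart. The Y-linked gene Eif2s3y had a log2 ratio of 3.50 in pair 1 and of -0.0040 and 0.03 in pairs 2 and 3, and Kdm5d, also Y-linked, had 1.24 in pair 1 and -0.05 and 0.13 in the others. For Xist, the RNA that coats the silenced X, the values were -1.06 in pair 1 and -0.09 and -0.14 in pairs 2 and 3. Y-linked genes and Xist thus lay on opposite sides in pair 1, and all 3 were within 0.14 of 0 in the other pairs. By these genes the 2 mice of pair 1 appear to differ in sex. Sex and genotype cannot then be told apart within pair 1. Over all rows, the ratios of pairs 2 and 3 correlated at Pearson r = 0.745 (Spearman rho = 0.467), and pair 1 correlated with them at r = 0.350 and 0.386 (rho = 0.0917 and 0.149). The 2 arrays of pair 1 correlated at r = 0.0239 with each other (rho = -0.180), against 0.463 and 0.462 in pairs 2 and 3 (rho = 0.127 and 0.155), where genes are not independent replicates. The part of sex in the pair differences of the kallikreins was not tested.

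Along the chromosome the larger positive means of the kallikreins lay in 1 stretch, from Klk12 to Klk6. Klk12, a trypsin-like kallikrein between Klk13 and Klk11 that was not in the set, gave 0.22, 1.50 and 1.37 with LynDN in Cy3 and 0.23, 1.62 and 1.28 with LynDN in Cy5, in pairs 1, 2 and 3. Its mean of 1.04 ± 0.71 (SD, n = 3 pairs; adjusted p = 0.297 in limma) lay close to that of Klk10. The ends of this stretch were set where the sign of the mean turned, so its signs are a description and support no test. Within it, from Klk12 to Klk6, all 7 genes had a positive mean. Of these, Klk8 was positive on 3 arrays and negative on 3, and Klk7 had a mean of -0.0063 with LynDN in Cy5 alone. The measured genes next to them, Klk14 and Klk5, had negative means, that of Klk14 resting on 1 array. Beyond Klk14 the direct neighbours Ctu1 and Siglece had -0.09 ± 0.13 and -0.09 ± 0.03, and beyond Klk5 the genes Klk4 and Klk15 had -0.07 ± 0.08 and 0.02 ± 0.11 (SD, n = 3 pairs each).

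**Figure D3:**
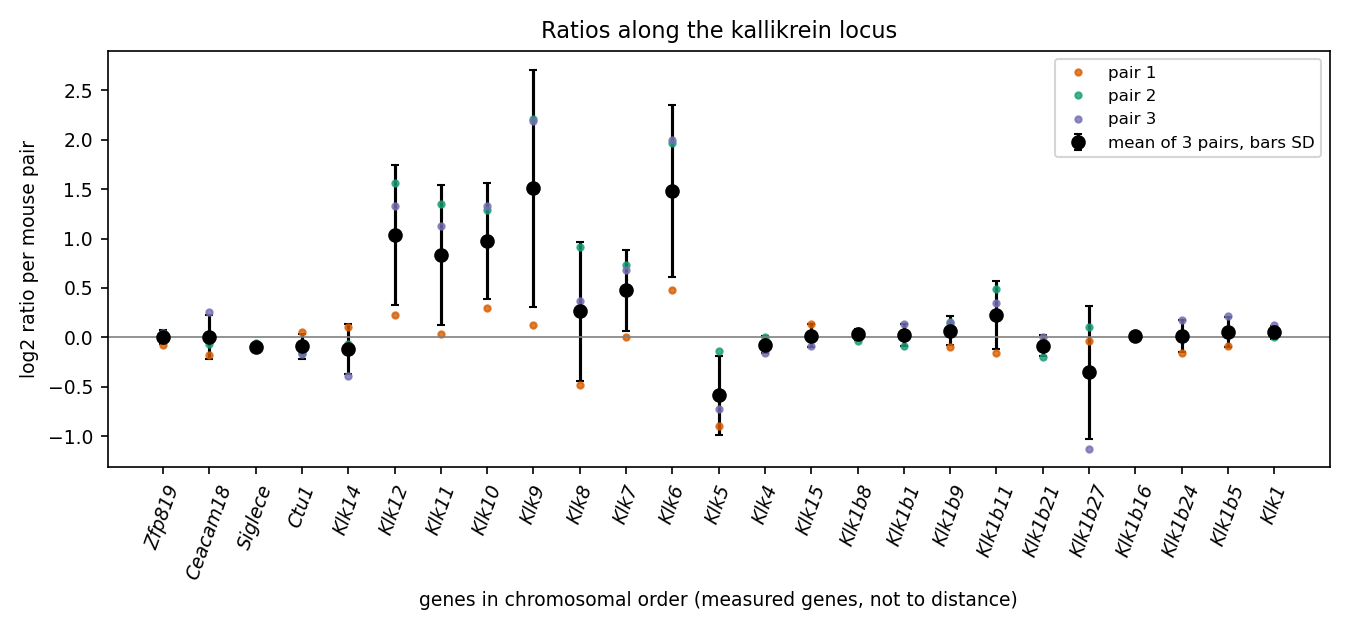
Log2 ratio per mouse pair (coloured points) and mean of the 3 pairs with SD (black) for the measured genes of the kallikrein locus and its neighbours, in chromosomal order and not to distance. Klk12 to Klk6 lie above 0 by their means, Klk5 lies at -0.58 beside Klk6 at 1.48, and the means of the measured Klk1 group genes other than Klk1b27 and Klk1b11 lie between -0.08 and 0.07.

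Of the 13 other kallikreins with a row, Klk12 was the only one with a mean beyond 0.5 in size. None passed limma on the pair values or with the pair as a block, against 0.0175% and 1.06% of all rows. On all 6 arrays 1 of the 13 was positive, against 3.72% of all rows. Their median was 0.02, against -0.01 for all rows and 0.67 for the 9 genes of the set. Klk1b11 had 0.23 ± 0.34 (adjusted p = 0.552), and Klk1b21 had -0.08 ± 0.10 (adjusted p = 0.616). Klk1b27 had -0.35 ± 0.67 (adjusted p = 0.608), a value that came from a single array of pair 3, with -2.17, whose dye swap gave -0.08. Genes of the Klk1 group are close copies of one another, and their probes may bind each other's transcripts, which makes a value of 1 gene uncertain.

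Some other inhibitor genes were positive with Spink5. Of 10 measured, 3 were positive on all 6 arrays, against 3.72% of all rows. On the pair values 0 passed, against 0.0175% of all rows, and 2 passed with the pair as a block, against 1.06%. Slpi, an inhibitor of neutrophil elastase whose human product also inhibits KLK7, had 1.59, 3.42 and 4.17 in pairs 1, 2 and 3, with a mean of 3.06 ± 1.33 (SD, n = 3; adjusted p = 0.244 on the pair values and 0.0251 with the block). Spink12, a Kazal-type inhibitor gene like Spink5, had 0.40, 1.06 and 1.15, with a mean of 0.87 ± 0.41 (SD, n = 3; adjusted p = 0.268 and 0.0413).

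Slpi and Spink12 thus also had their lowest ratio in pair 1. Spink2 had 0.37 ± 0.14 (adjusted p = 0.273) and Spint2, the gene of a Kunitz-type inhibitor of matriptase, had 0.12 ± 0.10 (adjusted p = 0.496; SD, n = 3 each). The list median was 0.07, so the other Spink and Spint genes lay near the table's median of -0.01.

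Of 9 measured proteases that work with kallikreins, 0 passed in limma on the pair values, against 0.0175% of all rows. With the block 0 passed as well, against 1.06% of all rows, so these counts do not set the list apart. Plau, the urokinase gene, had 0.52 ± 0.37 (adjusted p = 0.322) and the membrane-anchored Tmprss13 had 0.35 ± 0.30 (adjusted p = 0.365). Plg, the gene of plasminogen, had -0.18 ± 0.09 (adjusted p = 0.347), and Hpn, the gene of hepsin, had -0.08 ± 0.01 (adjusted p = 0.557; SD, n = 3 each). St14, the gene of matriptase, which can activate KLK5, had -0.13 ± 0.21 (adjusted p = 0.606; SD, n = 3; named after its value was seen). The list median was 0.03.

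Among the genes of proteins that kallikreins cut, and of cytokines tied to their activity, 6 of 7 measured had positive means, against 43.9% of all rows. The median was 0.29, and the smallest positive mean was 0.03 (Dsg1c, named after its value was seen). On all 6 arrays 4 were positive and 1 negative, against 3.72% and 4.31% of all rows. On the pair values 0 passed, against 0.0175% of all rows, and 1 passed with the block, against 1.06%. Cdsn, the gene of corneodesmosin, had 0.20, 0.90 and 0.74 in pairs 1, 2 and 3, with a mean of 0.61 ± 0.37 (SD, n = 3; adjusted p = 0.282). Dsc1, the gene of desmocollin 1, had -0.16, -0.59 and -0.63, with a mean of -0.46 ± 0.26 (SD, n = 3; adjusted p = 0.282).

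The 2 corneodesmosome genes Cdsn and Dsc1 thus lay on opposite sides, and both were nearest to 0 in pair 1. The desmoglein gene Dsg1b had 0.25, 0.28 and 0.33, with a mean of 0.29 ± 0.04 (SD, n = 3; adjusted p = 0.256), the most even of the 7 over pairs. Tslp, the gene of an alarmin cytokine that keratinocytes release when PAR2 is cut, had 0.38, 0.89 and 1.26, with a mean of 0.84 ± 0.44 (SD, n = 3; adjusted p = 0.276 on the pair values and 0.0455 with the block).

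Without pair 1, limma called 11 of the genes in these 4 lists, 10 positive and 1 negative. The lists held 13 other kallikreins, 10 other inhibitors, 9 linked proteases and 7 substrates and cytokines with a row. The 11 called genes are named next. They were Klk12, Klk1b11, Slpi, Spink12, Spink2, Plau, Tmprss13, Cdsn, Tslp and the interleukin gene Il1b on the positive side and Dsc1 on the negative one. This fit called 3.22% of all rows positive and 381 of 22879 rows negative, and it rests on 2 mouse pairs. Without pair 2 limma called 0 genes of these lists, and without pair 3 also 0.

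**Figure D4:**
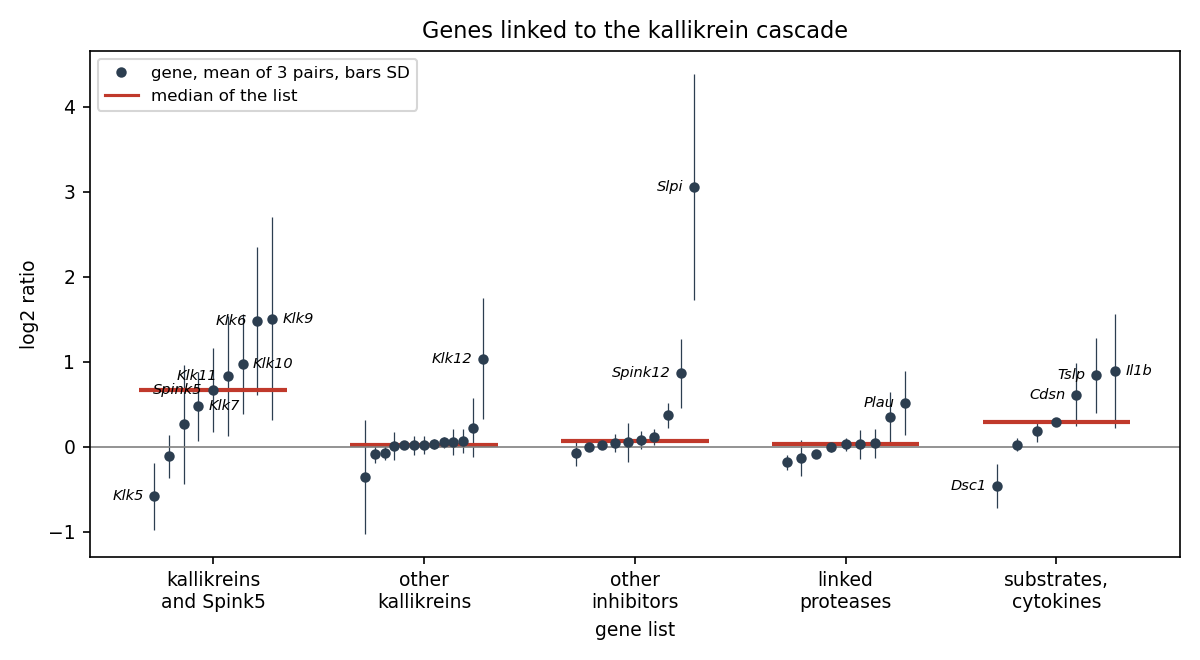
Mean log2 ratio of the 3 pairs with SD for the 9 genes (kallikreins and Spink5) and for each measured gene of 4 lists of related genes, with the list median in red and names for genes at least 0.45 from 0. The medians are 0.67 for the kallikreins and Spink5, 0.02 for other kallikreins, 0.07 for other inhibitors, 0.03 for linked proteases and 0.29 for substrates and cytokines.

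Markers of differentiated keratinocytes, the cells that make kallikreins, did not share one side, and those farthest from 0 were mostly negative. Of 11 measured, 6 had a positive and 5 a negative mean, where 43.9% of all rows had a positive one, and the median was 0.0053. On all 6 arrays 1 was positive and 4 were negative, against 3.72% and 4.31% of all rows, and 2 positive and 5 negative ones had an unadjusted p under 0.05. On the pair values 0 passed, against 0.0175% of all rows, and 2 passed with the block, against 1.06%. Of the 6 positive means, those of Casp14, Asprv1, Sbsn and Krt2 lay between 0.0053 and 0.09 (named after their values were seen). Lor (loricrin) and Flg (filaggrin) had -1.67 ± 0.45 and -2.23 ± 0.86 (SD, n = 3; adjusted p = 0.139 and 0.237), and both passed with the block (adjusted p = 0.00544 and 0.0198). Ivl (involucrin) had -0.39 ± 0.17 and the transglutaminase gene Tgm3 had 0.93 ± 0.55 (SD, n = 3; adjusted p = 0.278 each). Tgm1, also a transglutaminase gene and named after its value was seen, had 0.10, 1.22 and 0.96 in pairs 1, 2 and 3. Its mean was 0.76 ± 0.59 (SD, n = 3; adjusted p = 0.326), so it too was lowest in pair 1. The suprabasal keratin genes Krt10 and Krt1, named after their values were seen, had -1.77 ± 1.24 and -0.64 ± 0.61 (SD, n = 3; adjusted p = 0.298 and 0.381). All 6 basal keratinocyte markers had positive means (median 0.23, 0.57 and 0.48 in pairs 1, 2 and 3), against 43.9% of all rows. So did all 6 neutrophil markers (0.23, 0.49 and 0.43). All 9 hair follicle markers had negative means (by pair 0.11, -0.68 and -0.46), as did 12844 of 22879 rows. The means nearest to 0 were 0.10 for basal, 0.16 for neutrophil and -0.06 for hair follicle markers. On all 6 arrays 5 basal and 3 neutrophil markers were positive and 2 hair follicle markers negative, against 3.72% and 4.31% of all rows. Macrophage markers had medians of -0.03, 0.42 and 0.57, and mast cell markers -0.20, 0.58 and 0.55, so that these also differed between pair 1 and the others. Muscle markers had -0.02, -0.42 and -0.72, and sebaceous markers 0.05, 0.06 and 0.13. The part of cell composition in the kallikrein ratios was not tested.

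Likeness between genes was measured as the root mean square difference of log2 ratios over the 6 arrays, which share mice and dyes. Klk10 and Klk12 differed by 0.21, Klk11 and Klk12 by 0.22 and Klk10 and Klk11 by 0.23, the smallest differences among the 9 genes, Klk12 and Spink12. Klk6 and Klk9, which are not direct neighbours, differed by 0.29. In the whole table the named genes nearest to Klk9 were Sdcbp2 (0.13), Ccl8, a chemokine (0.19), AA467197 (0.23), Slc6a14, an amino acid transporter (0.25) and Trex2, an exonuclease of keratinocytes (0.25). Those nearest to Spink5 were Samhd1, Lrrc1, Mcemp1, Klf7 and Cyp26b1, a retinoic acid hydroxylase, at 0.13 to 0.14. Sdcbp2 had -0.04, 2.33 and 2.24 in pairs 1, 2 and 3, against 0.13, 2.21 and 2.19 for Klk9.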

How the data were processed

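The deposited table held a log ratio, taken as log2, for 25344 probes on 6 arrays (values from -6.34 to 6.16, column medians from -0.02 to 0.00). S100a9 was positive in both dye orientations, so the value was read as a ratio of the genotypes, and no sign was turned before averaging. Per the labels' protocols, RNA was extracted with Qiagen and labelled with Ambion reagents. The scanner, background correction, normalization, numerator and log base were not stated in the labels used. Intensities were not used here, so dim or saturated spots could not be marked, and the number of arrays limits the precision.

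Probes with 1 platform gene symbol (21082; 30 had several and 4232 none) were averaged per symbol. Of all probes, 20456 had an Entrez identifier found among RefSeq genes (GRCm38.p6), which altered 0 symbols. Per the labels, both arrays of a dye swap hold RNA of the same mice, so they were averaged to 1 value per pair, and this is the source of the pairing. limma 3.58.1 (R 4.3.3) tested whether the mean over the 3 pairs differed from 0. Adjustment followed Benjamini and Hochberg over 22879 rows, at a threshold of 0.05. An alternative fitted all 6 arrays with dye as a term and mouse pair as a random block (consensus correlation 0.151). Both fits were tested on simulated data. There the share of calls that fell on unchanged rows was above the threshold of 0.05 for the block fit, and larger than for the fit on pair values. A pass with the block is therefore weaker evidence than a pass on the pair values. The block fit gives all rows 1 correlation. Over all rows 4 passed on the pair values and 243 with the block. Per the labels, each mouse is an animal of its own.

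Members and the 12 other lists were chosen with earlier results of these data known. Named genes were all members, up to 4 per list by smallest p, the 5 genes nearest to Klk9 (the kallikrein with the largest mean) and to Spink5, and locus neighbours. Of the marker lists only genes that bear on the keratinocyte layer are named. Figures came from matplotlib 3.10.9 (Python 3.11.15).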

Additional observations from a re-analysis of the deposited data

Results flagged for a closer look

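Spint2 gave log2 ratios of 0.40, 0.38 and 0.31 in pairs 1, 2 and 3 on the arrays with LynDN in Cy3, and -0.03, -0.07 and -0.29 on those with LynDN in Cy5, so every array of one dye orientation lay on the opposite side from every array of the other. Each orientation lay 0.246 on the log2 scale from the mean of both, and this difference between orientations was not tested.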

How the results depend on the processing

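The numerator, the log base and the spot signals are not known, and 3 mouse pairs limit the precision. Over all rows, 4 calls on the pair values became 243 with the pair as a replicate block, 72 after quantile normalization, 34 without the rows of low range and 0 without variance moderation, and from 2 to 1117 when a pair was left out, with 1117 without pair 1. Of the 9 genes, kallikreins with Spink5, 0 were called under each alternative except that without pair 1, so that the counts ran from 0 to 6 when a pair was left out. Of the other genes in the 4 related lists, 0 were called on the pair values, 3 with the replicate block, 1 after quantile normalization, and from 0 to 11 when a pair was left out, with 11 without pair 1. Leaving out a pair also leaves fewer mice; the cause of the other changes was not tested. Among 25 named genes, 292 of 299 values under the alternatives kept their sign. When a pair was left out, the sign turned for Klk8, which ran from -0.057 (without pair 2) to 0.639, for Klk14, from -0.224 to 0.024 (without pair 3), and for Klk1b27, from -0.582 to 0.033 (without pair 3). With the arrays with LynDN in Cy5 alone it turned for Klk7 (-0.0063), Klk14 (0.0011), Klk1b21 (0.0077) and Spint2 (-0.13). The columns centred on their medians, scaled columns, single probes and medians over probes changed no call of a named gene. The replicate block changed the calls of Slpi, Spink12 and Tslp and of no other named gene of these lists. These calls are taken as weak evidence. The block fit called too many unchanged rows in simulated data, whose noise differed from that of the real arrays.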
